A study of Mus musculus with 15 samples.

Results

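The enzymes of the tricarboxylic acid (TCA) cycle, of pyruvate entry into it and of ketone body use were followed across adult life in mouse muscle. The 34 genes were chosen by name: citrate synthase to malate dehydrogenase, the pyruvate dehydrogenase complex with its kinases and the mitochondrial pyruvate carrier, the transaminases and glutamate dehydrogenase that feed the cycle, the branched-chain oxoacid dehydrogenase complex, and 3 enzymes of ketone use. Of these, 32 had a probe and 31 were measured, among 16593 genes named on the array. No probe was named for Mpc1 and Mpc2, the subunits of the mitochondrial pyruvate carrier, and the probe of Pdhx, a structural subunit of the pyruvate dehydrogenase complex, gave a signal above background on 0 arrays, so these 3 have no value here.

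The samples came from the gastrocnemius, a large and mostly fast calf muscle. The mice were male and of the strain C57BL/6, and each of the 15 had its own Illumina MouseRef-8 array. They were 5 months old in the young group, 17 months in the middle-aged and 28 months in the old, with 5 in each, were fed chow without restriction, and have no engineered allele or treatment in the labels. Whole muscle was used, so that fewer cells of a type and less RNA per cell cannot be told apart. All p-values measure the spread between these mice of 1 strain and 1 sex.

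The TCA cycle runs in the mitochondrial matrix and oxidises the acetyl group of acetyl-CoA, passing the electrons to the respiratory chain. Pyruvate from glycolysis enters through the pyruvate dehydrogenase complex, which a family of kinases switches off by phosphorylation, and ketone bodies enter through a short pathway that ends in acetyl-CoA. Slow, oxidative muscle fibres hold more mitochondria than fast ones, and citrate synthase activity is often taken as a measure of mitochondrial content in muscle.

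No transcript of this group passed the test in any comparison. In old against young muscle, limma called 0 of the 31 measured enzymes at a Benjamini-Hochberg adjusted p under 0.05, beside 3.31% of the 9470 features tested. In old against middle-aged muscle it called 0 beside 0.317%, and in middle-aged against young 0 beside 0.0106%. The change from 17 to 28 months also differed from that between 5 and 17 months in 0 of them, beside 0.0211% of all features. At an unadjusted p under 0.05, old muscle was higher than young in Acat1 and Idh1, which is 2 of 31 beside 18.9% of all features. The same threshold was met by 3 enzymes between old and middle-aged muscle (12.2% of all features), by 3 between middle-aged and young (5.07%) and by 2 for the difference of the steps (4.56%). The 5 old arrays were entirely apart from the 5 young in 0 enzymes (4.67% of all features), old from middle-aged in 0 (1.5%) and middle-aged from young in 0 (2.46%).

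The differences between old and young were mostly smaller than that of the median feature. Between old and young, 16 enzymes had a higher mean in old muscle and 15 a lower one, with a median log2 fold change of 0.04 beside -0.02 over all features. The median of the absolute log2 fold change was 0.08 beside 0.17. Single values ran from -0.46 (Pdk2) to 0.73 (Acat1), and the 95% interval lay within 0.5 of 0 on the log2 scale for 17 enzymes and within 1 of 0 for 30. Differences smaller than these intervals could not be detected with 5 arrays a group. Between old and middle-aged muscle the median absolute log2 fold change was 0.13 beside 0.15 over all features, with 14 enzymes higher and 17 lower. Between middle-aged and young it was 0.08 beside 0.10, and 22 of the 31 enzymes (71%) had the higher mean at 17 months, beside 49.4% of all features. For the difference of the steps it was 0.20 beside 0.19.

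**Figure D1:**
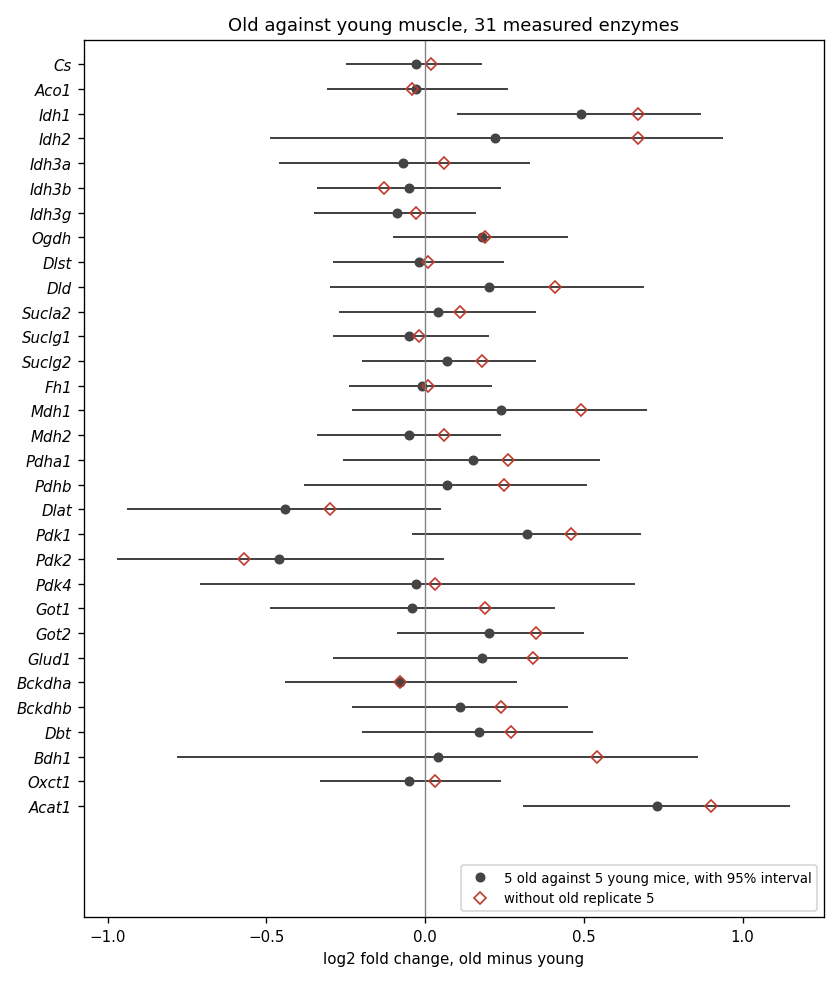
Log2 fold change of the 31 measured enzymes between old and young muscle, with the horizontal axis as old minus young and enzymes ordered by role from top to bottom. Filled points with bars are the fit to all arrays with its 95% interval, and open diamonds the value without old replicate 5; most filled points lie near 0, and without that array Acat1 stood at 0.90, Idh1 at 0.67 and Idh2 at 0.67.

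Citrate synthase, encoded by Cs, joins acetyl-CoA and oxaloacetate in the first step of the cycle. Its log2 intensity was 12.63, 12.44, 12.58, 12.67 and 12.60 in the young mice, 12.75, 12.53, 12.46, 12.56 and 12.69 in the middle-aged and 12.46, 12.70, 12.72, 12.55 and 12.33 in the old (replicates 1 to 5 in each list). The 3 groups overlapped over nearly their whole range. The old mean differed from the young by -0.03 ± 0.10 (log2, standard error) with a 95% interval from -0.25 to 0.18 (adjusted p = 0.902, limma), so that the interval holds nothing below 0.843 or above 1.13 times the young level. Cs was among the least variable features of the array: its pooled SD within ages was 0.13, at the 3.36th percentile of all features. Aco1, the cytosolic aconitase that doubles as an iron regulatory protein, was dim and stood at -0.03 ± 0.14 (0.943).

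Isocitrate dehydrogenase exists as the NAD-dependent enzyme of the cycle, built from the products of Idh3a, Idh3b and Idh3g, and as NADP-dependent enzymes in the cytosol (Idh1) and the mitochondrion (Idh2). The NAD-dependent subunits stood between -0.09 and -0.05 in old against young muscle, with 0 called. Idh1 read 8.41, 8.48, 8.69, 8.62 and 8.25 in the young mice, 8.69, 8.40, 8.47, 8.45 and 8.50 in the middle-aged, and 8.80, 9.08, 9.56, 9.21 and 8.23 in the old. Old replicates 1 to 4 were above every younger array, and old replicate 5 was below all of them. The old mean was 1.40-fold the young (log2 0.49 ± 0.18, adjusted p = 0.153) and 1.39-fold the middle-aged (0.47 ± 0.18, 0.307), while middle-aged and young differed by 0.01 ± 0.18.

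Idh2 showed the same arrangement of the old arrays with a wider gap. It read 12.02, 11.95, 11.99, 11.91 and 11.85 in the young mice, 12.26, 11.90, 12.63, 11.85 and 12.85 in the middle-aged, and 12.85, 12.51, 12.30, 12.80 and 10.37 in the old. The young arrays lay within a narrow band, old replicates 1 to 4 lay above it and old replicate 5 far below it. With that array in the fit the old mean differed from the young by 0.22 ± 0.34 (adjusted p = 0.768).

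Of the enzymes from 2-oxoglutarate to succinate, Ogdh gave the lowest p, between middle-aged and young muscle. Ogdh, the first enzyme of the 2-oxoglutarate dehydrogenase complex, read 10.83, 10.89, 10.97, 11.32 and 11.07 in the young mice, 11.26, 11.40, 11.16, 11.29 and 11.41 in the middle-aged, and 11.54, 11.39, 10.85, 11.05 and 11.14 in the old. All middle-aged arrays were above 4 of the 5 young ones, and the old arrays covered most of both ranges. The middle-aged mean was 1.22-fold the young (log2 0.29 ± 0.13, unadjusted p = 0.0422, adjusted p = 0.956), and the old differed from the young by 0.18 ± 0.13 (adjusted p = 0.487). Between old and young, Dlst, the succinyl-transferring core of the complex, differed by -0.02 ± 0.13, and Dld, the lipoamide dehydrogenase shared by this and the pyruvate and branched-chain complexes, by 0.20 ± 0.24. The succinyl-CoA ligase genes Suclg1, Suclg2 and Sucla2, which make GTP or ATP from succinyl-CoA, stood between -0.05 and 0.07 by their brightest probes. Sucla2 was near background (raw intensity 84.3 to 105.1, detected on 13 arrays), so a change in it could be missed. A dimmer probe of Suclg2, detected on 12 arrays, read 0.64 ± 0.30 (adjusted p over all probes 0.27), so the probes of this gene differed in size and neither was called. Second probes of Idh3g, Suclg1, Pdhb, Glud1 and Dbt read between 0.02 and 0.33, with 0 called, and for Idh3g and Suclg1 their sign was opposite to that of the brighter probe.

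Fh1, the fumarase, and the malate dehydrogenases close the cycle. Fh1 read 11.91, 11.63, 11.97, 11.85 and 11.59 in the young mice, 12.21, 11.96, 12.00, 12.11 and 11.91 in the middle-aged, and 11.58, 11.85, 11.91, 11.84 and 11.69 in the old. The middle-aged arrays lay at the top, with their lowest values inside the young range and level with the highest old array. The middle-aged mean was 1.19-fold the young (log2 0.25 ± 0.11, unadjusted p = 0.0329, adjusted p = 0.906), and the old mean was 0.26 below the middle-aged (standard error 0.11, adjusted p = 0.338). The 2 steps differed by -0.51 ± 0.19 (adjusted p = 0.973).

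Mdh1, the cytosolic malate dehydrogenase of the malate-aspartate shuttle, read 9.51, 9.60, 9.66, 9.54 and 9.43 in the young mice, 9.80, 9.39, 9.78, 9.19 and 10.10 in the middle-aged, and 10.12, 10.24, 9.90, 9.89 and 8.77 in the old. As in Idh2, old replicates 1 to 4 were above every young array and old replicate 5 below. The mean difference from young was 0.24 ± 0.22 (adjusted p = 0.606) and a dimmer probe of the gene gave 0.57 ± 0.26 (adjusted p over all probes 0.255). The mitochondrial Mdh2 differed by -0.05 ± 0.14.

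Pyruvate dehydrogenase is built from E1 (Pdha1, Pdhb), the acetyl-transferring E2 core (Dlat) and E3 (Dld). Pdha1 differed by 0.15 ± 0.19 between old and young and Pdhb by 0.07 ± 0.21. Dlat read 10.10, 9.96, 10.12, 9.86 and 9.93 in the young mice, 10.16, 9.69, 10.01, 9.74 and 9.94 in the middle-aged, and 9.09, 9.48, 10.76, 9.45 and 8.99 in the old. Old replicates 1, 2, 4 and 5 were below every younger array and old replicate 3 was the highest of all 15. Over all arrays the old mean was 1.36-fold lower than the young (log2 -0.44 ± 0.24, adjusted p = 0.319) and 1.28-fold lower than the middle-aged (-0.35 ± 0.24, 0.56).

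The kinases Pdk1, Pdk2 and Pdk4 phosphorylate the E1 subunit and turn the complex off, and Pdk4 is the form that muscle raises in fasting. Pdk1 read 7.93, 8.18, 8.17, 8.35 and 8.26 in the young mice, 8.27, 8.02, 8.22, 8.14 and 8.40 in the middle-aged, and 8.46, 8.48, 9.13, 8.50 and 7.91 in the old. Its old replicates 1 to 4 were above every younger array and old replicate 5 was the lowest of the 15 (log2 0.32 ± 0.17 against young, adjusted p = 0.318).

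Pdk2 went the other way in its mean. It read 9.84, 9.48, 9.96, 9.87 and 9.62 in the young mice, 9.37, 10.07, 9.87, 10.05 and 9.0 in the middle-aged, and 9.56, 9.19, 8.33, 9.67 and 9.74 in the old, where old replicate 3 was the lowest of all arrays and 3 old arrays lay inside the young range. The difference from young was -0.46 ± 0.24 (adjusted p = 0.32), and -0.21 without old replicate 3. Pdk4 was among the most variable enzymes: it read 12.51, 12.52, 12.55, 12.71 and 12.93 in the young mice, 12.82, 12.17, 11.57, 12.17 and 12.96 in the middle-aged, and 13.73, 12.91, 12.77, 11.29 and 12.38 in the old. The old arrays lay on both sides of the young ones, with a mean difference of -0.03 ± 0.33 and a 95% interval from -0.71 to 0.66.

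**Figure D2:**
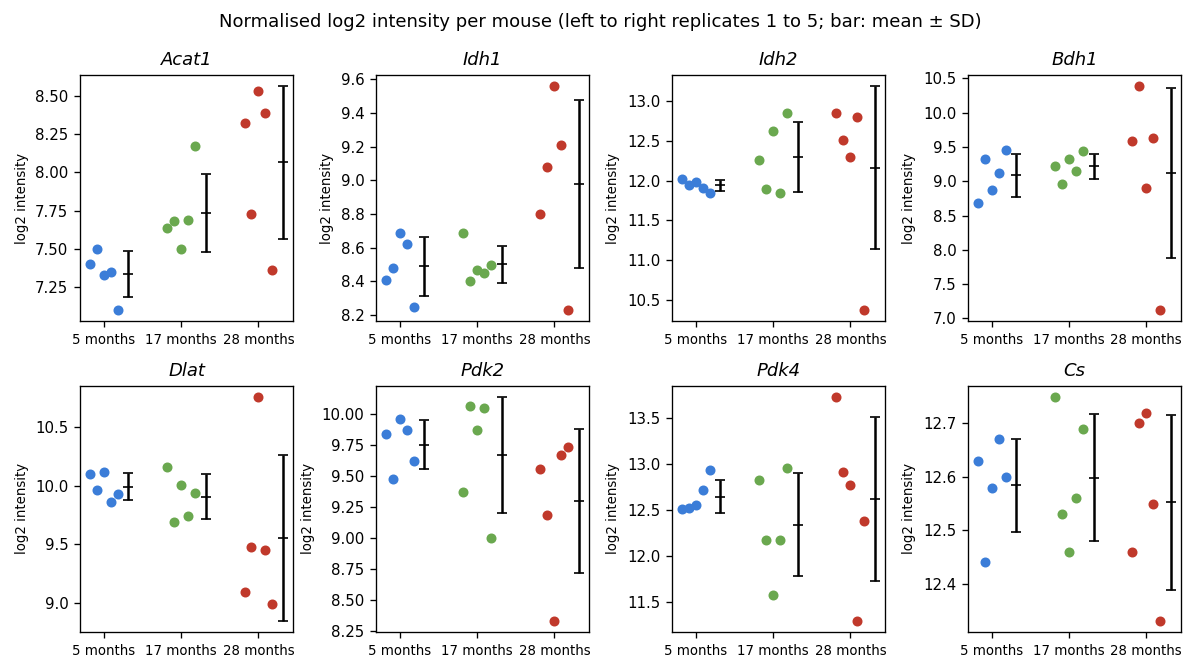
Normalised log2 intensity (vertical axis, its range set for each gene) of 8 enzymes in each mouse at 5, 17 and 28 months, with replicates 1 to 5 from left to right and the group mean ± SD (n = 5) at the side. For Acat1, Idh1 and Idh2 the points of old replicates 1 to 4 lie above the young ones and old replicate 5 does not; for Dlat old replicate 3, at 10.76, lies apart from the other old arrays; Cs stays between 12.33 and 12.75.

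Amino acids reach the cycle through the aspartate transaminases Got1 and Got2 and glutamate dehydrogenase (Glud1). Got2, the mitochondrial transaminase, read 13.60, 13.64, 13.64, 13.68 and 13.75 in the young mice, 13.68, 13.58, 13.79, 13.65 and 14.01 in the middle-aged, and 13.87, 14.10, 14.17, 13.90 and 13.28 in the old, so that old replicates 1 to 4 again lay above the young arrays and old replicate 5 below. The mean difference was 0.20 ± 0.14 (adjusted p = 0.456), beside -0.04 ± 0.22 for Got1 and 0.18 ± 0.22 for Glud1. The branched-chain oxoacid dehydrogenase genes Bckdha, Bckdhb and Dbt, whose complex commits leucine, isoleucine and valine to oxidation, stood between -0.08 and 0.17, with adjusted p from 0.644 to 0.857.

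Of the ketone enzymes, Acat1, the mitochondrial acetoacetyl-CoA thiolase, which also works in isoleucine breakdown, came nearest to a call. It read 7.40, 7.50, 7.33, 7.35 and 7.10 in the young mice, 7.64, 7.68, 7.50, 7.69 and 8.17 in the middle-aged, and 8.32, 7.73, 8.53, 8.39 and 7.36 in the old. Old replicates 1 to 4 were above all young arrays, old replicate 5 was within the young range, and the middle-aged arrays ran from the level of the highest young array to above old replicate 2. The old mean was 1.66-fold the young (log2 0.73 ± 0.20, 95% interval 0.31 to 1.15, unadjusted p = 0.00166). Its adjusted p of 0.0500138 was above the threshold by less than 3 digits show, and small changes of the processing moved it to either side. The mean at 17 months was 1.32-fold the young (0.40 ± 0.20, adjusted p = 0.972), and the old was 1.26-fold the middle-aged (0.33 ± 0.20, 0.511).

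Oxct1, the enzyme that transfers CoA from succinyl-CoA to acetoacetate and lets muscle use ketone bodies, was highest at 17 months. It read 12.36, 12.45, 12.49, 12.63 and 12.59 in the young mice, 12.91, 12.60, 12.66, 12.86 and 13.09 in the middle-aged, and 12.27, 12.58, 12.94, 12.33 and 12.17 in the old. Apart from old replicate 3, every old array was below every middle-aged one, and the young and middle-aged groups overlapped by 1 array each. The middle-aged mean was 1.25-fold the young (log2 0.32 ± 0.14, adjusted p = 0.906) and 1.29-fold the old (old minus middle-aged -0.36 ± 0.14, 0.299), and the steps differed by -0.68 ± 0.24 (0.973). Bdh1, the 3-hydroxybutyrate dehydrogenase of the same pathway, read 8.68, 9.32, 8.87, 9.12 and 9.45 in the young mice, 9.22, 8.96, 9.32, 9.15 and 9.44 in the middle-aged, and 9.59, 10.39, 8.90, 9.63 and 7.12 in the old. It had the widest spread of the enzymes, with the highest and the lowest of its 15 values both among the old, and a mean difference of 0.04 ± 0.39 from the young.

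Values were spread more widely among the old mice. The median SD over the enzymes was 0.41 among old mice, 0.22 among middle-aged and 0.15 among young, beside 0.30, 0.21 and 0.17 over all features. In 25 of the 31 enzymes (80.6%) the old group had the largest SD, beside 66.1% of all features. The pooled SD within ages was largest for Bdh1 (0.74), Idh2 (0.65) and Pdk4 (0.62), at the 99.4th, 98.6th and 98.4th percentile of all features, and smallest for Cs and for Fh1 (0.14).

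Among the old arrays, replicates 3 and 5 stood at opposite ends. Old replicate 5 had the lowest value of all 15 arrays in 19 of the 31 enzymes and lay below every young array in 23, with a median of -0.38 from the mean of the 15. Old replicate 3 had the highest value of the 15 in 11 enzymes and a median of 0.24, among them Pdha1 (14.26), Dlat (10.76), Glud1 (10.30), Dbt (9.65) and Dld (9.38), but the lowest in 3 (Pdk2, Idh3b and Bckdha). On middle-aged replicate 5 the median was 0.23 and 18 enzymes were the highest of their group. The other 12 arrays had medians between -0.12 and 0.13. Such counts per array were not made over all features, so they are not shown to be particular to the enzymes. Without old replicate 5, 710 features were called in old against young in place of 313.

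**Figure D3:**
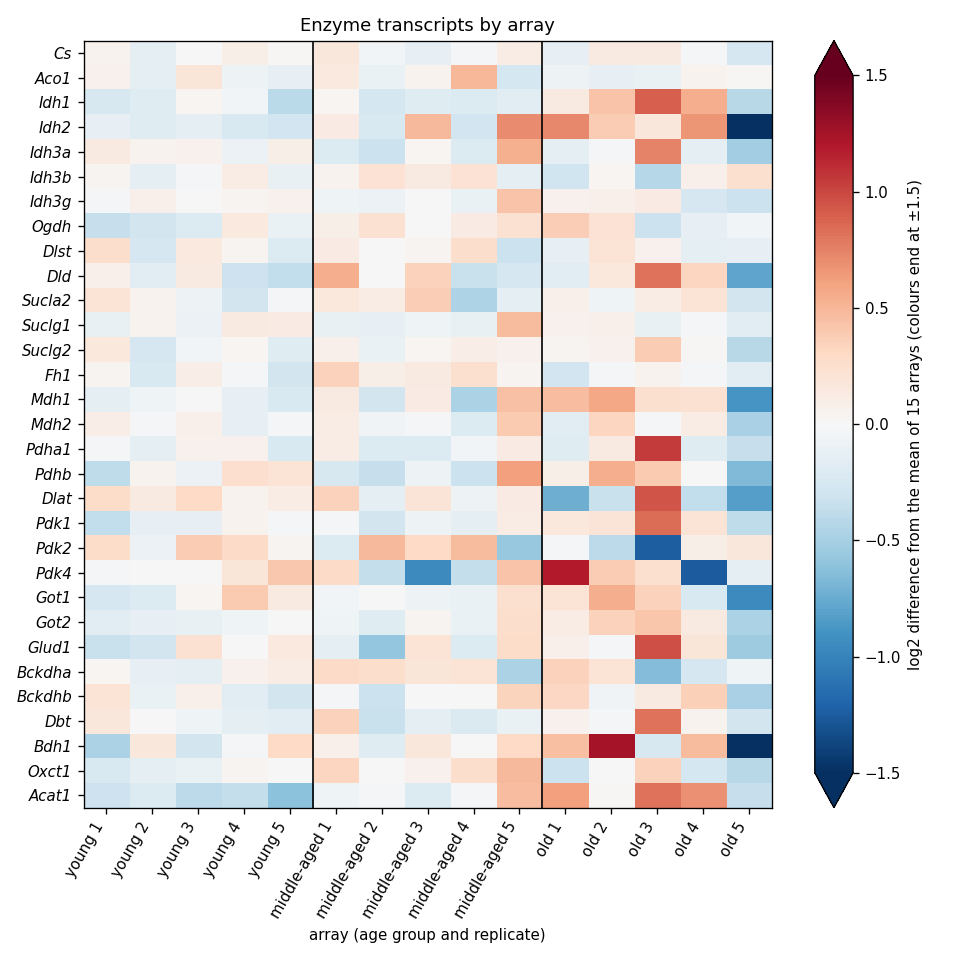
Each of the 31 enzymes (rows, ordered by role) on each of the 15 arrays (columns, by age group and replicate), coloured by the log2 difference from that enzyme's mean over the 15 arrays, red higher and blue lower, with colours ending at ±1.5. The column of old replicate 5 is blue in most rows, that of old replicate 3 is red in many, and the young columns are pale.

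In 6 enzymes exactly 4 of the 5 old arrays were higher than all young ones, namely Idh1, Idh2, Mdh1, Pdk1, Got2 and Acat1, and in all 6 the other array was old replicate 5. That is 19.4% of the enzymes beside 6.8% of all features. Dlat was the only enzyme with exactly 4 old arrays below every young one (8.45% of all features). This way of counting was chosen after the values were seen and is a description.

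The call of several enzymes turned on old replicates 3 and 5. These arrays stood out in the enzymes' own values. The p-values without them therefore describe how the calls depend on single arrays and are not separate tests. Without old replicate 5, 3 of the 31 enzymes were called in old against young, all higher, beside 7.57% of 9373 features. Acat1 was 1.87-fold the young level (log2 0.90 ± 0.17, adjusted p = 0.00354), Idh1 1.59-fold (0.67 ± 0.15, 0.00958) and Idh2 1.59-fold (0.67 ± 0.18, 0.0288), and the median over the enzymes was 0.18. Against the middle-aged, Idh1 was 1.58-fold higher (0.66 ± 0.15, 0.0227) and was the 1 enzyme called, beside 3.26% of all features. Without old replicate 3, Dlat alone was called, 1.67-fold lower than in young muscle (-0.74 ± 0.13, 0.00243), beside 4.62% of all features, and 1.57-fold lower than in middle-aged (-0.65 ± 0.13, 0.0203), beside 0.617%. With both arrays left out, a setting added after seeing the data, 6 of the 31 enzymes were called against young, beside 9.31% of all features: Acat1, Idh1, Idh2, Bdh1 (0.78 ± 0.19) and Mdh1 (0.53 ± 0.16) were higher and Dlat lower. Leaving out middle-aged replicate 5 or old replicate 2 put Acat1 past the threshold as well (adjusted p = 0.0382 and 0.0393), the 1 enzyme called beside 3.6% and 3.23% of all features.

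Old replicate 5 also stood apart in genes of slow fibres. A list of 11 slow fibre genes (Myh7, Myl2, Myl3, Tnnt1, Tnni1, Tnnc1, Tpm3, Atp2a2, Casq2, Myoz2 and Csrp3), all of them measured, had a median of -1.68 from the mean of the 15 arrays there, against 0.22 to 1.04 on the other old arrays and -0.70 to 0.39 on the younger ones. The summed level of the list ran from 36100 to 64800 in young, from 49600 to 72000 in middle-aged and from 20000 to 104000 in old mice, and 0 of its genes were called in old against young muscle (10 of 11 higher, median log2 0.64).

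Of the relations between the 31 enzymes and this list from mouse to mouse, 0 passed the adjustment. With each value taken as its deviation from its age group, Idh2 correlated with the list's median over the 15 arrays with Pearson's r = 0.92 (permutation p = 0.0023, 0.0713 after adjustment over the 31 relations) and Spearman's rho = 0.80 (permutation p = 0.0032, adjusted 0.0995). Bdh1 gave r = 0.86 and rho = 0.60 (permutation p = 0.026 and 0.05, adjusted 0.158 and 0.31), and Mdh1 r = 0.85 and rho = 0.63 (permutation p = 0.0095 and 0.026, adjusted 0.148 and 0.266). Without old replicates 5 and 2, the arrays farthest from the median of the list, r was 0.67 for Idh2 (permutation p = 0.0099, adjusted 0.307). It was 0.28 for Bdh1 and 0.41 for Mdh1, so these 2 relations rested on those arrays. For Bckdhb r was 0.74 and rho 0.57 with all arrays (permutation p = 0.015 and 0.04, adjusted 0.151 and 0.306). Without old replicates 5 and 2 its r was 0.63 (permutation p = 0.026, adjusted 0.407). For Acat1 r was 0.60 (permutation p = 0.1, adjusted 0.305) and rho 0.39 (permutation p = 0.22, adjusted 0.594), and for Cs r was 0.49 and rho 0.25 (permutation p = 0.17 and 0.44, adjusted 0.404 and 0.761). The part of the fibre makeup of each sample in these values was not tested.

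**Figure D4:**
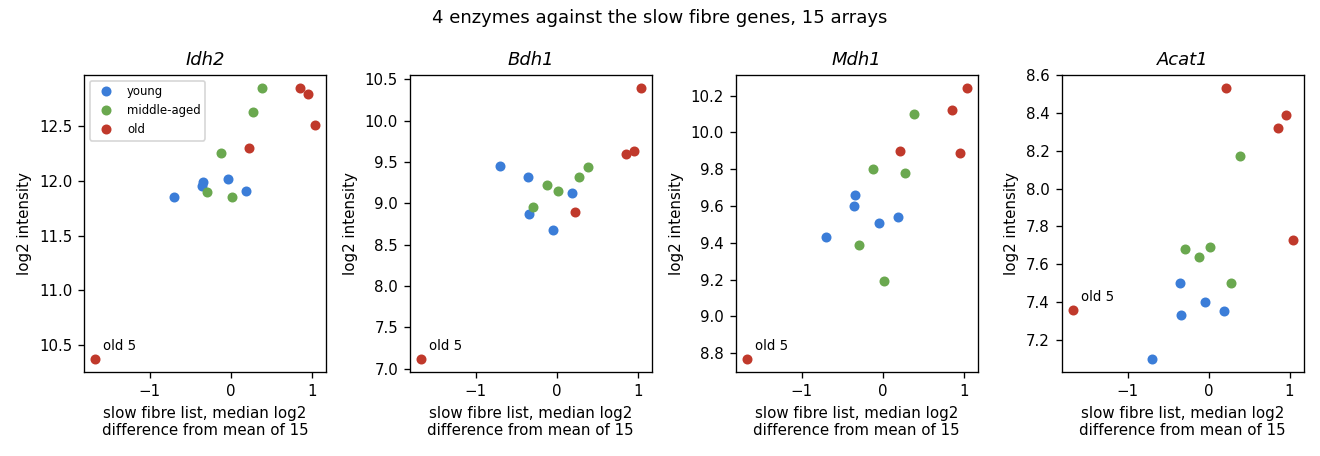
Log2 intensity of Idh2, Bdh1, Mdh1 and Acat1 (vertical axes, set for each gene) against the median of the 11 slow fibre genes, as the log2 difference from the mean of the 15 arrays (horizontal axis), with 1 point per mouse coloured by age. Old replicate 5, marked, lies at -1.68 and is the lowest point of the first 3 panels.

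Promoters are shown for Idh2 and Mdh1, 2 of the 23 enzymes that lay below every young array on old replicate 5. The third is that of Dlat, the 1 enzyme with exactly 4 old arrays below every young one. Each is the 250 bases before the gene's start in RefSeq's annotation of build GRCm38.p6, written 5′ to 3′ on the gene's own strand, with capitals for the GC box GGGCGG on either strand, the site bound by Sp1. The window of Idh2 is chr7:80115351-80115600 (minus strand), that of Mdh1 chr11:21571935-21572184 (minus strand) and that of Dlat chr9:50659781-50660030 (minus strand).
Idh2: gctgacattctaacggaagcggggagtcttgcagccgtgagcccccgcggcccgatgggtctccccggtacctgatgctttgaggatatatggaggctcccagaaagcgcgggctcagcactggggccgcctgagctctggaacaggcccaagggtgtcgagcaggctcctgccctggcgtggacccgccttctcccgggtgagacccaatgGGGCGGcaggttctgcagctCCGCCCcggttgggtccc
Mdh1: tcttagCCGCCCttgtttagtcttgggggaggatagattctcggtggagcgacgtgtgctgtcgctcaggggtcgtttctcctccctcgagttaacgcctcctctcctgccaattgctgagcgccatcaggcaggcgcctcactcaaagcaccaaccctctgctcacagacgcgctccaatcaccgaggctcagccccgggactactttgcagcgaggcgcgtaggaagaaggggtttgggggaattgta
Dlat: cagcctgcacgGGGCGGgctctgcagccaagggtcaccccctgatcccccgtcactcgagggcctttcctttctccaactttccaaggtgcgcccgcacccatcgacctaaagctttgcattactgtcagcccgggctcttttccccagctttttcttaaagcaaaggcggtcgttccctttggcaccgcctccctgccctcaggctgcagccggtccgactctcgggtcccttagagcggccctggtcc
The windows held 2, 1 and 1 GC boxes. Of the 31 measured enzymes, 28 matched at least 1 start, with 38 windows in all. The GC box was in 18 of the 38 windows (47.4%), in 16 enzymes that included Cs and Fh1, beside 32.7% of all 32851 windows. The cyclic AMP response element TGACGTCA was in 4 windows, from 2 of the 28 enzymes, Mdh2 and Ogdh (10.5% of windows beside 1.55%). The core of the nuclear respiratory factor 1 element, GCATGCGC, was in 3 windows, from 2 enzymes, Glud1 and Ogdh (7.89% beside 2.26%). These shares count windows, and 1 enzyme can have several. The extended site of the oestrogen-related receptors, TCAAGGTCA, was in 0 windows of the enzymes (0.387% of all), and its inner AAGGTCA, which the longer motif contains, in 1, of Got1 (2.63% beside 4.08%). Both strands were read for each motif.

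Genes that border these pathways also had no calls. Of a list of 39 such genes (succinate dehydrogenase, pyruvate carboxylase, malic enzymes, lactate dehydrogenase, phosphatases of pyruvate dehydrogenase, alanine transaminases, acetyl-CoA synthetases and the later steps of branched-chain breakdown), 33 had a probe and 27 were measured. Of the 27, 0 were called in old against young, in old against middle-aged or in middle-aged against young. The shares of all features called in these comparisons were 3.31%, 0.317% and 0.0106%. Their median log2 fold change was 0 in old against young, -0.07 in old against middle-aged and 0.07 in middle-aged against young. At an unadjusted p under 0.05, 7, 4 and 2 of the 27 passed in these comparisons, beside 18.9%, 12.2% and 5.07% of all features. The lowest p-values in old against young were those of Gpt2, the mitochondrial alanine transaminase (log2 -0.60 ± 0.17, adjusted p = 0.0609), Ldha, the muscle form of lactate dehydrogenase (-0.35 ± 0.12, 0.123), and Pcx, pyruvate carboxylase (-0.51 ± 0.18, 0.134).

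Fibre genes were present as the muscle label says: 7 of 8 general muscle fibre genes were measured and their summed level was between 173000 and 205000 on all arrays, with 0 called. Macrophage genes rose in old muscle (6 of 11 measured called higher than in young, 0 lower, summed level 3140 to 4770 in young and 5130 to 10700 in old). Fibroblast genes fell in part (3 of 8 called lower, 0 higher, 12400 to 17100 against 9270 to 15000). Over all features, 3.31% were called in old against young. Among fat cell genes, Fabp4 and Retn were above background on no array, and 4 of 8 were measured with 0 called and a summed level of 12400 to 19200 in young, 13900 to 23200 in middle-aged and 8280 to 18800 in old. In middle-aged against young, 3 of the 4 measured had an unadjusted p under 0.05, beside 5.07% of all features, with 0 called. Lep was 4.96-fold the young level (adjusted p = 0.321), Cidec 2.80-fold (0.621) and Adipoq 2.34-fold (0.763), and the list's median log2 fold change was 1.36. Lpl, the other measured gene of the list, was 1.07-fold the young level. The summed level weighs bright genes most and need not follow the list's median. The median of the fat cell list stood at 1.76 from the mean of the 15 arrays on middle-aged replicate 5. Many enzymes were the highest of their group on that array. The list stood at -0.54 to 1.27 on the other middle-aged arrays and at -1.14 to -0.43 on the young. On the old arrays it ran from -1.09 on replicate 3, where many enzymes were high, to 1.06 on replicate 5, where most were low. The part of these cells in the enzyme values was not tested.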

How the data were processed

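Total RNA of each muscle was extracted with Trizol, amplified, labelled and hybridised by the authors. They deposited a raw intensity per probe, read with GenomeStudio 2011.1, with a detection p-value against negative control beads, and a score per probe (natural log intensity, centred and scaled per array); the recomputed score matched within 0.000924. Probe names came from the platform's annotation. From the intensities, neqc of limma 3.58.1 (R 4.3.3) corrected background with an offset of 16, normalised by quantiles and took log2. Of 25697 probes, 12552 were detected (p under 0.05) on 5 or more of the 15 arrays. The brightest probe stood for a gene, which left 9470 features. Of 43 probes of the enzymes, 38 passed. Differently bright probes are not compared in level.

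One model with a mean per age (lmFit, then eBayes with a trend) was tested two-sided, with p-values adjusted by Benjamini-Hochberg over all features and called under 0.05. Relations with slow fibre genes were tested with 100000 permutations of the arrays within ages, and were chosen after seeing the data. Members and lists were chosen with earlier results of these data known. All members are accounted for; values per array are given for those with the lowest p, for Cs and Pdk4, and for Idh2, Mdh1, Bdh1 and Ogdh, added after their values were seen. Alternatives were other background corrections, offsets, scalings, detection filters and probe rules, array weights, a replicate block, the groups compared alone, the methods' t-test and arrays left out. The fit was checked on simulated data. The number of arrays limits precision. Promoter windows came from RefSeq.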

Additional observations from a re-analysis of the deposited data

Results flagged for a closer look

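In 8 of 93 sets of 5 arrays (31 enzymes at 3 ages) 1 array lay far from the other 4. The gap was more than 0.71 of the whole range in each. Chance gives about 1 in 20 for independent sets. These sets were not independent, because all enzymes were read on the same arrays. Such counts were not made over all features, in total or per array, so they are not shown to be particular to the enzymes. Of the 8 sets, 5 were on middle-aged replicate 5. There Idh3g read 13.79 (next 13.36), Suclg1 13.99 (next 13.46), Pdhb 12.10 (next 11.40) and Acat1 8.17 (next 7.69), all above the rest of the group, and Bckdha read 9.80, below it (next 10.46). Old replicate 5 was the low array for Idh2, at 10.37 (next 12.30), and for Mdh1, at 8.77 (next 9.89). Old replicate 3 was the high array for Dlat, at 10.76 (next 9.48).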

How the results depend on the processing

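With 5 arrays a group, the calls of single enzymes depended on which arrays entered. Enzymes called in old against young, each count beside the share of all features called in that setting, numbered 1 with the mean of a gene's probes (Acat1, 3.27%), 3 with array weights (Acat1, Idh1 and Dlat, 9.19%), 1 by the methods' t-test at its own thresholds (Acat1, 5.39%), 1 with middle-aged replicate 5 and old replicate 3 both left out (Dlat, 6.26%) and 6 without old replicates 3 and 5 together (9.31%), and from 0 to 3 with 1 array left out. In old against middle-aged they numbered 1 with array weights (Idh1, 4.94%), 1 with middle-aged replicate 5 and old replicate 3 both left out (Dlat, 1.08%), 2 without old replicates 3 and 5 together (Dlat and Idh1, 3.85%) and 0 to 1 with 1 array left out. The methods' t-test at its own thresholds called 3 in middle-aged against young (Acat1, Fh1 and Ogdh, 3.63%). The difference of the steps had 0 under every alternative that gave one, which leaves out the t-test and the fit to only the groups compared. The median of the enzymes in old against middle-aged went from -0.03 to 0.14 without old replicate 5 (-0.07 to 0.14 with 1 array left out). The sign turned for values near 0: Cs in old against young read 0.03 with the methods' Z scores, recomputed or deposited, and 0.02 without old replicate 5. Pdk4 read 0.05 with both scores, 0.04 without young replicate 5, 0.30 without old replicate 4, 0.03 without old replicate 5 and 0 without old replicates 3 and 5 together (-0.31 to 0.30 with 1 array left out). The cause was not tested. On average, arrays of the same replicate number did not deviate together (mean r -0.02 over 15 pairs, beside 0 for other pairs across groups). Single pairs ran from -0.50 to 0.40, with 3 over 0.1. For 5 arrays the best match across groups had their own number. With a replicate block 219 features were called in old against young in place of 313, with 0 enzymes. Over all features array weights called 870, 468 and 77 in the 3 comparisons of ages, in place of 313, 30 and 1. Median scaling called 136 in old against young, and the fit to only the groups compared 178.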
